A study of Mus musculus with 19 samples.

Results

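The genes considered here encode nuclear-encoded subunits of respiratory complexes II to V, together with cytochrome c, the carrier between complexes III and IV. They were taken as every gene symbol in the probe annotation that was Sdha, Sdhb, Sdhc, Sdhd, Cyc1 or Cycs, or that began with Uqcr, Cox4, Cox5, Cox6, Cox7, Cox8 or Atp5. This gave 48 genes on 96 probe sets, and 45 genes passed the filter of a log2 signal above 4 on at least 5 of 19 arrays, out of 10733 genes tested in all. The 3 that did not pass were the testis isoforms Cox6b2, which lay above the filter on 1 array, and Cox7b2 and Cox8c, which lay above it on none (0 arrays each). The 45 genes comprised 4 of complex II, 9 of complex III, Cycs, 14 of complex IV and 17 of complex V. Only probe sets with a single gene symbol were used, and Cox7b of complex IV is missing because none lists it alone. Where a gene had several probe sets, the brightest over all arrays stood for it. Subunits encoded by mitochondrial DNA were not analysed here.

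Left ventricular RNA was taken from male C57BL/6 mice that underwent surgery at 7 weeks of age and were killed 4 weeks later, with 1 Affymetrix array for each mouse. The study compared 7 banded mice with heart failure (failing mice), 7 banded mice without heart failure (non-failing banded mice) and 5 sham-operated mice. Banding constricts the aorta, so that the left ventricle must eject against a higher pressure. No allele or drug was involved, and the labels do not state the criterion that defined heart failure. The index of lung weight over tibia length given in the labels was 17.92 to 24.62 in failing mice, 8.52 to 10.83 in non-failing banded mice and 8.2 to 9.38 in sham mice.

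Complex II, succinate dehydrogenase, and complex III, the cytochrome bc1 complex, feed electrons by way of cytochrome c to complex IV, cytochrome c oxidase (COX), which reduces oxygen. Complexes III and IV pump protons out of the mitochondrial matrix, and complex V, the ATP synthase, uses their return to make ATP. The beating ventricle draws most of its ATP from this system, and cardiac muscle expresses heart and muscle isoforms of several COX subunits.

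Most of these genes were among the brightest on the arrays: 41 of the 45 had a mean log2 signal over 13, and the median member stood at the 99th percentile of the genes tested. Before the comparisons, 2 differences between arrays that the groups do not define were measured. The 18S ribosomal RNA control was high on 6 arrays (sham mice 1 to 3 and non-failing banded mice 5 to 7) and low on 13 (all 7 failing mice, non-failing banded mice 1 to 4 and sham mice 4 and 5). The 3′ minus 5′ log2 difference of the actin control probe sets, which reflects RNA quality, was 0.661 to 0.905 in failing mice, 0.672 to 0.898 in non-failing banded mice and 0.943 to 1.02 in sham mice. Since no banded mouse reached the sham range, this actin difference and banding cannot be told apart. The same difference for the Gapdh control overlapped between all groups, at -0.0661 to 0.0426 in failing mice, -0.0582 to 0.045 in non-failing banded mice and -0.0934 to 0.0369 in sham mice. The animal IDs in the labels fall into 3 series. Series I holds failing mice 1 and 2 together with the 6 mice of the high 18S set.

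Transcripts of complexes II to V and cytochrome c were lower in failing than in sham ventricles. In a limma fit over all arrays, 32 of the 45 genes were lower at an adjusted p under 0.05 and 0 were higher; of all genes tested, 18.9% were called lower and 20.4% higher. Among the 351 genes at least as bright as the 10th percentile of the members, 35.9% were called lower. These bright genes include most of the members themselves. The median change of the members was -0.23 on the log2 scale (1.18-fold lower), against 0.01 over all genes tested, and the fitted change of all 45 lay below 0. In 26 members every failing mouse lay below every sham mouse, a pattern shown by 9.06% of the genes tested. Cox7c passed the filter mainly through sham arrays. Without it and Cox4i2, which also lay near the filter, 31 of 43 genes were lower.

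**Figure D1:**
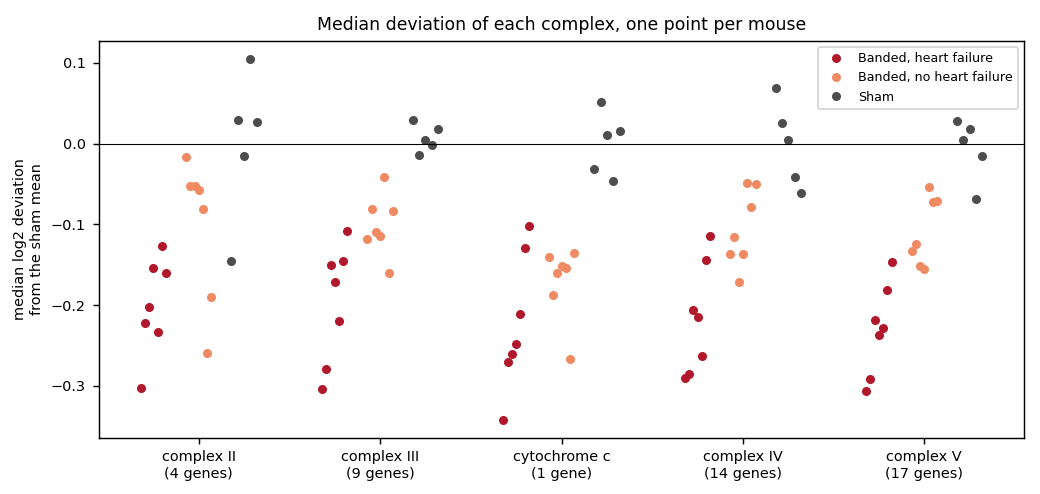
For each mouse (points), the median over the genes of a complex of the log2 deviation from the sham mean (y axis), by complex (x axis), with failing, non-failing banded and sham mice from left to right within a complex. In complexes III, IV and V the failing and sham ranges do not overlap. The range of the non-failing banded mice overlaps the failing range in each of these, and the sham range in complexes IV and V.

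Genes of each complex were among those called lower. The median log2 change in failing against sham mice was -0.21 in complex II (2 of 4 genes lower), -0.18 in complex III (6 of 9), -0.23 in complex IV (10 of 14) and -0.24 in complex V (13 of 17), and Cycs was also lower. The complex IV count includes Cox7c. At a filter of log2 above 6, which Cox7c and Cox4i2 did not pass, it was 9 of 12 with a median of -0.23. Taken mouse by mouse over all 45 genes, the median deviation from the sham mean ran from -0.304 to -0.137 in failing mice (median -0.214), from -0.137 to -0.057 in non-failing banded mice (median -0.102) and from -0.035 to 0.029 in sham mice (median 0.01). The failing and sham ranges did not overlap. Over the 4 genes of complex II alone they did, at -0.303 to -0.127 in failing mice and -0.146 to 0.105 in sham mice. The non-failing banded range over all 45 genes also stayed below the sham range and met the failing range at its end. Failing mice 1 and 2 were the lowest of their group and failing mice 6 and 7 the highest.

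Markers of other cell types also differed between the groups, and their part in these results was not tested. Of 10 fibroblast markers, 9 were higher in failing than in sham mice, and their summed linear signal was 76500 to 103000 in failing mice, 40700 to 75500 in non-failing banded mice and 28400 to 50300 in sham mice. Of 12 cardiomyocyte markers, 5 were lower (Myh6, Tnni3, Ryr2, Pln and Ckm) and 2 higher (Mybpc3 and Casq2). Their summed signal was 536000 to 582000 in failing mice, 568000 to 592000 in non-failing banded mice and 559000 to 610000 in sham mice. Of 9 endothelial markers, 3 (Pecam1, Robo4 and Tie1) were higher in failing than in sham mice, and Cdh5 was lower in failing than in non-failing banded mice. Of 7 smooth muscle and pericyte markers, 2 (Tagln and Pdgfrb) were higher in failing than in sham mice. Atrial markers varied widely within each group. The summed signal of the 5 tested was 484 to 44000 in failing mice (median 720), 1630 to 29700 in non-failing banded mice (median 7800) and 733 to 13700 in sham mice (median 2200). Between the banded groups their median log2 change was -2.63, with 1 of 5 lower: Myl7, the atrial light chain, at 6.59 ± 4.40 in failing mice and 11.52 ± 1.62 in non-failing banded mice (SD, n = 7 each, limma adjusted p = 0.0457). Against sham, 1 atrial marker, Dkk3, was higher in failing mice (log2 change 1.97, adjusted p = 0.00803). Of 10 macrophage and leukocyte markers, 0 were called in any comparison. Of 6 skeletal muscle markers only Acta1 passed the filter. It was higher than in sham mice in failing (log2 change 1.22, adjusted p = 4.34e-08) and non-failing banded mice (1.16, adjusted p = 6.72e-07). Of the 2 adipocyte markers that passed, Cidea and Adipoq, 0 were called in any comparison. The brown fat marker Ucp1 and the fast skeletal muscle markers Myh1, Myh2 and Myh4 did not pass the filter. In tissue RNA of this kind, fewer cells of a type and less RNA per cell cannot be told apart.

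**Figure D2:**
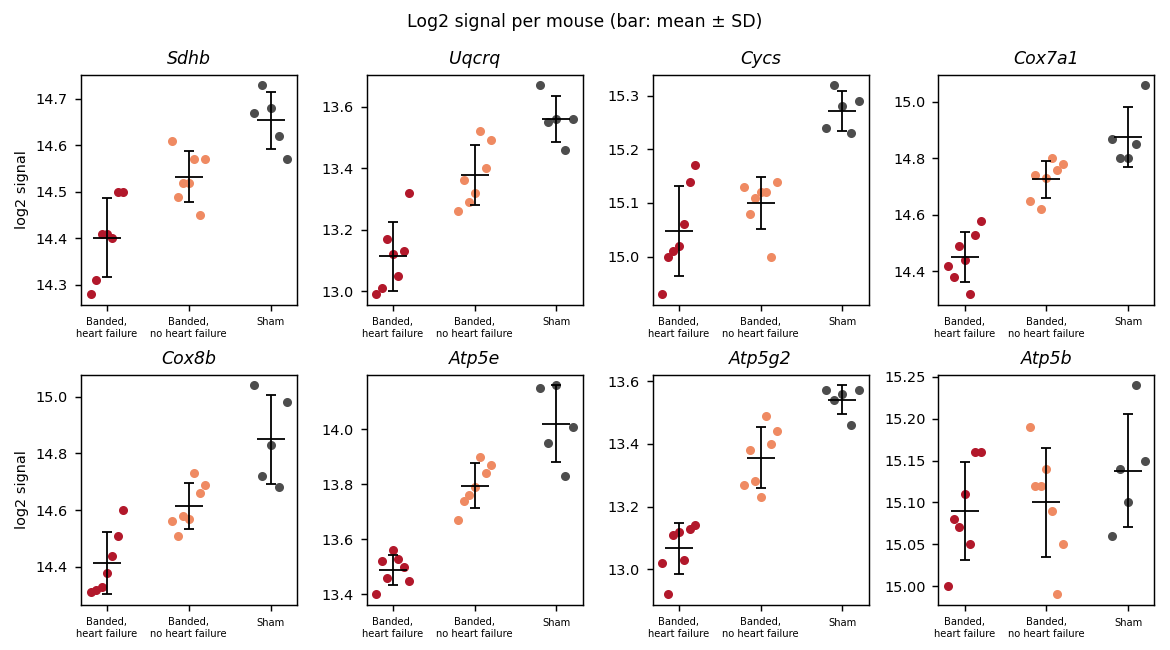
Log2 signal of 8 genes in every mouse (points), with the group mean and SD (bars), for failing, non-failing banded and sham mice from left to right in each panel. Atp5e, Atp5g2 and Cox7a1 separate the failing mice from both other groups, and Atp5b overlaps throughout.

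In complex II, both catalytic subunits were lower in failing mice. Sdhb, the iron-sulfur subunit, had log2 signals of 14.28 to 14.5 in failing mice (median 14.41), 14.45 to 14.61 in non-failing banded mice (median 14.52) and 14.67, 14.73, 14.68, 14.62 and 14.57 in sham mice. Every failing mouse lay below every sham mouse, and the non-failing banded mice overlapped both groups. The change in failing against sham mice was -0.25 ± 0.05 (log2 ± SE, 1.19-fold lower, adjusted p = 0.000744). Sdha, the flavoprotein that oxidises succinate, averaged 13.59 ± 0.09 in failing mice (SD, n = 7) and 13.84 ± 0.06 in sham mice (SD, n = 5), a change of -0.25 ± 0.06 (adjusted p = 0.00413). Another Sdha probe set with the same mean signal of 13.69 gave -0.42 ± 0.05.

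The membrane anchors of complex II, Sdhc and Sdhd, did not pass the test against sham (log2 changes of -0.16, adjusted p = 0.121, and -0.12, adjusted p = 0.213). For Sdhd this depended on the probe set. Its dimmer probe set gave -0.15 ± 0.04, with an unadjusted p of 0.00111, and the mean of its probe sets was called lower (adjusted p = 0.0328). Sdhc was lower in failing than in non-failing banded mice, however. Its log2 signal was 12.84 to 12.99 in failing mice (median 12.9), 12.96 to 13.27 in non-failing banded mice (median 13.21) and 12.75, 13.06, 12.96, 13.27 and 13.27 in sham mice. The sham values spanned both banded groups, with the lowest in sham mouse 1. The difference between the banded groups was -0.26 ± 0.07 (log2, adjusted p = 0.0342). This call held in 10 of the 19 fits that left out 1 mouse. It was lost without the filter, with equal array medians, in the low 18S set and in ID series I.

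In complex III the largest changes were those of 3 small subunits without redox centres. Uqcrq had log2 signals of 12.99 to 13.32 in failing mice (median 13.12), 13.26 to 13.52 in non-failing banded mice (median 13.36) and 13.67, 13.55, 13.56, 13.46 and 13.56 in sham mice. No failing mouse reached the sham range, and only failing mouse 7 reached that of the non-failing banded mice. The change in failing against sham mice was -0.45 ± 0.06 (1.36-fold lower, adjusted p = 2.87e-05).

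Uqcr10, another small subunit, lay between 12.68 and 13.06 in failing mice (median 13), between 12.98 and 13.24 in non-failing banded mice (median 13.06) and at 13.48, 13.42, 13.5, 13.18 and 13.31 in sham mice. Its change in failing against sham mice was -0.45 ± 0.08 (adjusted p = 0.000175), and its 2 dimmer probe sets gave -0.48 and -0.50. Uqcr11 was lower by 1.22-fold (log2 -0.28 ± 0.05, adjusted p = 0.000175), with failing mice at 13.59 to 13.81 and sham mice at 13.91 to 14.01. Uqcrb, which lies against cytochrome b, and the hinge protein Uqcrh were lower by less, with log2 changes of -0.18 and -0.16.

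The core protein Uqcrc1 was lower (-0.26, adjusted p = 0.00247). The other core protein, Uqcrc2, had a change of -0.09 (adjusted p = 0.272). Its dimmer probe set gave -0.16 ± 0.04, with an unadjusted p of 0.00178, and the mean of its probe sets was not called (-0.13, adjusted p = 0.0621). The nuclear-encoded subunits that carry redox centres did not pass the test: cytochrome c1 (Cyc1) changed by -0.14 ± 0.06 (adjusted p = 0.0583) and the Rieske iron-sulfur protein Uqcrfs1 by -0.06 ± 0.06 (adjusted p = 0.444). Cyc1 lay near the threshold. It was called lower with equal array medians (adjusted p = 0.0316) and without the filter (0.0463), but not after quantile normalisation (0.31). Whether the redox subunits and the small subunits differ in their response was not tested.

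Cytochrome c was lower in both banded groups. Cycs had log2 signals of 14.93 to 15.17 in failing mice (median 15.02), 15 to 15.14 in non-failing banded mice (median 15.12) and 15.24, 15.32, 15.28, 15.23 and 15.29 in sham mice. No banded mouse reached the sham range, and the banded groups overlapped. The change was -0.22 ± 0.05 in failing mice (adjusted p = 0.00134) and -0.17 ± 0.05 in non-failing banded mice (adjusted p = 0.0215), each against sham.

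In complex IV the heart and muscle isoforms Cox7a1 and Cox8b had the largest changes among genes measured on all arrays. Cox7a1 had log2 signals of 14.32 to 14.58 in failing mice (median 14.44), 14.62 to 14.8 in non-failing banded mice (median 14.74) and 14.87, 14.8, 14.8, 14.85 and 15.06 in sham mice. The failing mice lay below all other mice. The non-failing banded mice reached only the lowest sham values. The change was -0.42 ± 0.06 in failing against sham mice (1.34-fold lower, adjusted p = 1.95e-05) and -0.28 ± 0.05 in failing against non-failing banded mice (adjusted p = 0.00502).

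Cox8b had log2 signals of 14.31 to 14.6 in failing mice (median 14.38), 14.51 to 14.73 in non-failing banded mice (median 14.58) and 15.04, 14.72, 14.83, 14.68 and 14.98 in sham mice. Failing and sham mice did not overlap, and the change was -0.44 ± 0.07 (1.35-fold lower, adjusted p = 0.000105). In non-failing banded against sham mice it was -0.24 ± 0.07 (adjusted p = 0.0281).

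The other COX genes called lower in failing against sham mice had log2 changes of -0.27 (Cox5b, a zinc-binding subunit) to -0.15 (Cox5a), with Cox7c set aside. Cox4i1 and Cox6b1, the common forms of their subunits, were each 1.11-fold lower (adjusted p = 0.00873 and 0.00728). Cox6a2, the heart and muscle form of subunit 6a, changed by -0.24 ± 0.06 (adjusted p = 0.00361), and Cox6a1, its more widely expressed form, by -0.01 ± 0.08 (adjusted p = 0.928). A dimmer probe set of Cox6a1 gave -0.25, with an unadjusted p of 0.0217. Cox7a2l, a factor of respiratory supercomplexes related to subunit 7a, changed by -0.03 ± 0.07 (adjusted p = 0.726).

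No fold is given for 2 COX genes whose signal lay near the filter. Cox7c was above it on 6 arrays, at 2.27 to 4.15 in failing mice, 3.33 to 4.48 in non-failing banded mice and 5.39, 4.35, 4.24, 4.56 and 3.8 in sham mice. Cox4i2, the inducible form of subunit 4, lay at 3.45 to 4.06 in failing mice and 3.87 to 4.04 in sham mice. In non-failing banded mice 1 to 4 it lay at 4.01 to 4.04, and in mice 5, 6 and 7 of that group at 5.09, 4.91 and 5.35. Those 3 mice belong to the high 18S set, whereas the 3 sham mice of that set lay at 4.04, 3.87 and 4.01.

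The 250 bases upstream of the RefSeq gene starts of Cox7a1 (chr7:30183921-30184170, plus strand) and Cox8b (chr7:140900447-140900696, minus strand), GRCm38.p6, are shown because these heart and muscle isoforms had the largest fall in complex IV. They were chosen after the values were seen.
Cox7a1: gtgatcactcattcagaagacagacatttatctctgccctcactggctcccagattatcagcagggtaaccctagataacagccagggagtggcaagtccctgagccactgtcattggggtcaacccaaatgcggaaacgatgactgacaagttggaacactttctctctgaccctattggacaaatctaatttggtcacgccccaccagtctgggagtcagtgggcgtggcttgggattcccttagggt
Cox8b: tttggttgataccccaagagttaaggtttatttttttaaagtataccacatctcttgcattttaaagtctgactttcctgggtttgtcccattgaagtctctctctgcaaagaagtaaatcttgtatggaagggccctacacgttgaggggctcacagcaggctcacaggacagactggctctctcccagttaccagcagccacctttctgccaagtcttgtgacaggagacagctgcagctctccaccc

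Whether the paired COX isoforms changed unequally was asked by the difference of their log2 signals within each mouse, in 12 exact two-sided permutation tests over mice, adjusted together. The difference Cox7a1 minus Cox7a2 was -0.17 to 0.02 in failing mice, 0.07 to 0.19 in non-failing banded mice and 0.01 to 0.26 in sham mice. It was lower in failing mice by 0.17 than in non-failing banded mice (change -0.17, exact permutation p = 0.000583, adjusted p = 0.00699). Against sham it was also lower (change -0.19, exact permutation p = 0.00253, adjusted p = 0.0152). Cox7a1 thus fell further than Cox7a2, the more widely expressed form, which changed by -0.24 against sham. The result against sham rested on the choice of probe set: with the mean of a gene's probe sets the change was -0.13 (adjusted p = 0.131), while against non-failing banded mice it was -0.16 (adjusted p = 0.00699).

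The difference Cox6a2 minus Cox6a1 averaged 0.38 ± 0.12 in failing mice, 0.47 ± 0.07 in non-failing banded mice and 0.61 ± 0.12 in sham mice (SD, n = 7, 7 and 5). It was lower than sham in failing mice (change -0.23, exact permutation p = 0.00884, adjusted p = 0.0354) and in non-failing banded mice (change -0.14, exact permutation p = 0.0139, adjusted p = 0.0417). With the most variable probe set of each gene the sign in non-failing banded mice turned (0.03, adjusted p = 0.78), and with the mean of the probe sets neither comparison passed.

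The pair Cox8b and Cox8a did not pass in any comparison (adjusted p of 0.619 to 0.686). Cox8a was split by the 18S array sets: it lay at 10.45 to 10.65 in non-failing banded mice 5 to 7 and at 10.46 to 10.59 in sham mice 1 to 3. All other mice lay between 9.67 and 10.14. For the pair Cox4i2 and Cox4i1 no value is given, since Cox4i2 lay near the filter; its tests are counted among the 12.

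**Figure D3:**
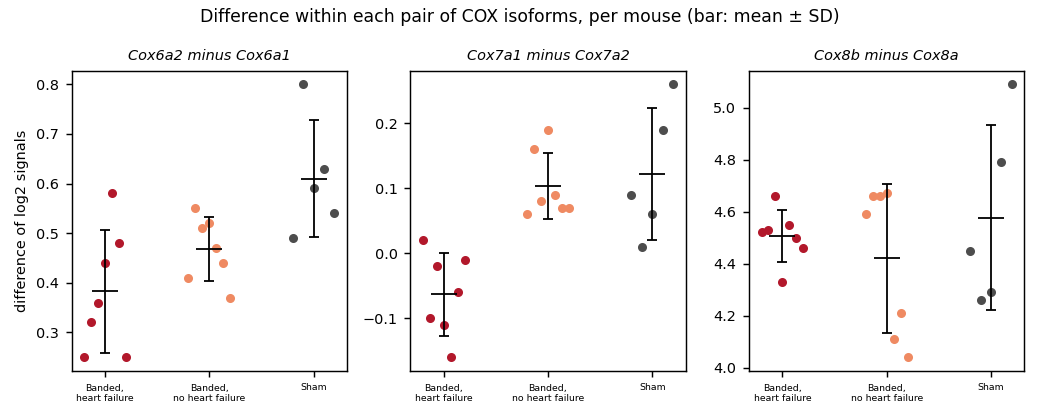
Difference of the log2 signals of 2 COX isoforms within each mouse (points), with the group mean and SD (bars), for failing, non-failing banded and sham mice from left to right in each panel. For Cox7a1 minus Cox7a2 the failing mice (-0.17 to 0.02) lie below all non-failing banded mice (0.07 to 0.19).

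Complex V held the largest change of all members measured on every array. Atp5e, the epsilon subunit in the central stalk of the F1 head, had log2 signals of 13.4 to 13.56 in failing mice (median 13.5), 13.67 to 13.9 in non-failing banded mice (median 13.79) and 14.15, 13.95, 14.16, 13.83 and 14.01 in sham mice. The failing mice lay below all other mice, and 3 non-failing banded mice reached the lowest sham value. The change was -0.53 ± 0.06 in failing against sham mice (1.45-fold lower, adjusted p = 2.4e-06) and -0.31 ± 0.06 in failing against non-failing banded mice (1.24-fold lower, adjusted p = 0.00372). In non-failing banded against sham mice it was -0.22 ± 0.06 (adjusted p = 0.017).

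The 3 genes of the membrane c ring encode the same mature protein and had unequal fitted changes. Atp5g2 had log2 signals of 12.92 to 13.14 in failing mice (median 13.11), 13.23 to 13.49 in non-failing banded mice (median 13.38) and 13.57, 13.54, 13.56, 13.46 and 13.57 in sham mice. The failing mice again lay below all other mice. The change was -0.47 ± 0.06 against sham (1.39-fold lower, adjusted p = 3.46e-06) and -0.29 ± 0.05 against non-failing banded mice (adjusted p = 0.00355). Atp5g1 changed by -0.26 ± 0.06 against sham (adjusted p = 0.000936) and Atp5g3 by -0.10 ± 0.05 (adjusted p = 0.115). The difference between these changes was not tested.

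In the F1 head, Atp5c1 and Atp5d, the gamma and delta subunits of the central stalk, were each 1.18-fold lower. The alpha and beta subunits that form the catalytic hexamer did not pass the test with the probe sets that stood for them. Atp5b, the beta subunit, lay at 15 to 15.16 in failing mice (median 15.08), 14.99 to 15.19 in non-failing banded mice (median 15.12) and 15.06, 15.14, 15.1, 15.24 and 15.15 in sham mice. The 3 groups overlapped, and the change against sham was -0.05 ± 0.05 (adjusted p = 0.45). Atp5a1, the alpha subunit, changed by -0.09 ± 0.06 (adjusted p = 0.234), and its other bright probe set gave -0.07 ± 0.06. Atp5a1 was called lower with the mean of its probe sets (-0.34, adjusted p = 0.00477) and with its most variable probe set, the dimmest (-0.88, adjusted p = 0.0321).

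Of the 4 genes of the peripheral stalk, 3 were lower in failing than in sham mice. Atp5j, coupling factor F6, changed by -0.32 ± 0.05 (1.25-fold lower, adjusted p = 0.000139). Atp5o, the protein that joins the stalk to the head, changed by -0.40 ± 0.11 (adjusted p = 0.00621). The probe set that stood for it varied widely between mice, from 13.85 to 14.39 in failing mice and from 13.94 to 14.7 in non-failing banded mice. The other probe set of Atp5o gave -0.31 ± 0.03, with an unadjusted p of 2.74e-08. Its SDs were 0.06 in failing, 0.05 in non-failing banded and 0.05 in sham mice. Atp5h, the d subunit, differed little between mice of a group: it lay at 15.31 to 15.35 in failing mice, 15.32 to 15.48 in non-failing banded mice and 15.55, 15.53, 15.52, 15.54 and 15.53 in sham mice. No banded mouse reached the sham range of Atp5h, and the change in failing mice was -0.21 ± 0.04 (adjusted p = 0.00075). All 5 genes of the Fo membrane part other than the c ring (Atp5j2, Atp5k, Atp5l, Atp5md and Atp5mpl) were lower, with changes of -0.28 to -0.21.

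The 250 bases upstream of the RefSeq gene starts of Atp5e (chr2:174464102-174464351, minus strand) and Atp5g2 (chr15:102671048-102671297, minus strand), GRCm38.p6, are shown because these genes had the largest fall among members measured on all arrays. Capitals mark a match to the ETS-type motif CCGGAAG of GABP, on the opposite strand in Atp5e and beginning 102 bases before the start. In Atp5g2 they mark overlapping matches on both strands to GCGCANGCG, a core motif of NRF-1 in which N is any base, beginning 42 bases before the start.
Atp5e: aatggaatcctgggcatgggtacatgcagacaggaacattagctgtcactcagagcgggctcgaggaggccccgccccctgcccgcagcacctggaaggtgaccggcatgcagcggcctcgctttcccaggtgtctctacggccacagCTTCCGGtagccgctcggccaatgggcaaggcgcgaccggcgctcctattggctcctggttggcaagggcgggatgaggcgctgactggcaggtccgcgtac
Atp5g2: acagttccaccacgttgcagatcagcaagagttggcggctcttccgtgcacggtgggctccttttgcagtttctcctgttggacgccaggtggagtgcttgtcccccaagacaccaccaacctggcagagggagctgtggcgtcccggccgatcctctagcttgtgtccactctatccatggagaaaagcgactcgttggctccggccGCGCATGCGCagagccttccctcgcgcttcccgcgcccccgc

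NRF-1 and GABP are known regulators of nuclear genes for respiratory subunits, so their motifs were counted on both strands of the same window in the 34 members with a RefSeq promoter entry. CCGGAAG was present in 9 of the 34 (26.5%), against 15.9% of the 8715 tested genes with an entry. GCGCANGCG was also present in 9 (Atp5c1, Atp5g2, Atp5h, Atp5k, Atp5l, Cox6a1, Cycs, Sdha and Sdhd; 26.5%), against 13.1%. This form of the NRF-1 motif was adopted after 2 longer forms had been counted, each rarer both in these genes and in all genes, so nothing is read from its share. The nuclear receptor core motif AGGTCA was present in 4 (11.8%), against 12.8%, and TCAAGGTCA, the element of ERR alpha that contains it, in Atp5g3 (2.94%, against 0.333%). The YY1 motif AAGATGGCG was present in Atp5j (2.94%, against 1.45%). None of these letters was found in the windows of Cox7a1 and Cox8b shown above. A match describes the sequence and does not show binding.

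**Figure D4:**
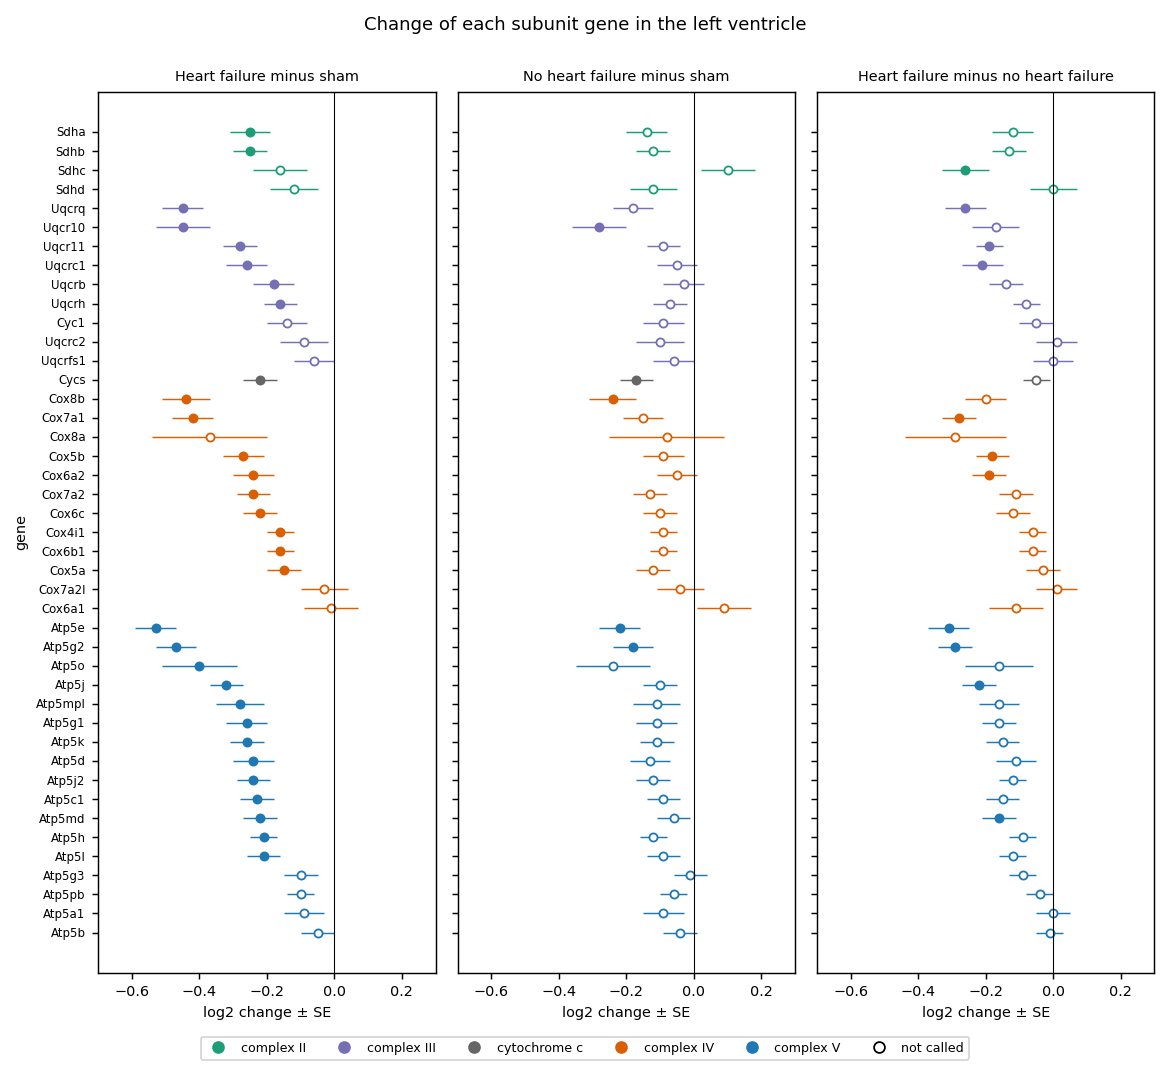
Log2 change with its standard error (x axis) of the 43 genes measured on all arrays (y axis), by comparison, coloured by complex, with filled points for genes at an adjusted p under 0.05. In failing against sham mice all 43 points lie at or below 0, from -0.53 (Atp5e) to -0.01 (Cox6a1), and filled points are fewer in the other comparisons (5 and 11 genes).

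In banded mice without heart failure few of these genes passed the test. Against sham, 5 of 45 were lower and 0 higher, while 6.53% of all genes tested were called lower and 10.8% higher. Of the 351 bright genes defined above, which include most members, 9.4% were called lower. The 5 were Uqcr10 (-0.28 ± 0.08, adjusted p = 0.0183), Cycs, Cox8b, Atp5e and Atp5g2 (-0.18 ± 0.06, adjusted p = 0.0306). The median change of the members was -0.10, against 0.02 over all genes tested, and 19 members were lower and 1 (Cox4i2, near the filter) higher at an unadjusted p under 0.05, where 12.9% of all genes tested were lower. In Cycs and Atp5h the non-failing banded and sham mice did not overlap, and such a separation downward was seen in 3.04% of all genes tested. The count of 5 depended on single mice: it was 1 without sham mouse 1, 3 without sham mouse 2, 2 without sham mouse 3, 3 without sham mouse 5 and 3 without non-failing banded mouse 1. Over all fits without 1 mouse, 4.23% to 8.52% of all genes tested were called lower. Among arrays of the low 18S set the count was 0, where 1.24% of all genes tested were called lower.

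Failing and non-failing banded mice differed in 11 of the 45 genes, all lower in failing mice (0 higher), while 5.65% of all genes tested were called lower and 3.83% higher. Of the 351 bright genes, which include most members, 11.1% were called lower. The 11 members were Sdhc of complex II, Uqcrc1, Uqcrq and Uqcr11 of complex III, Cox5b, Cox6a2 and Cox7a1 of complex IV, and Atp5e, Atp5g2, Atp5j and Atp5md of complex V. The fitted changes ran from -0.31 (Atp5e) to -0.16 (Atp5md). Uqcrq changed by -0.26 ± 0.06 (adjusted p = 0.0103), Uqcrc1 by -0.21 ± 0.06 (adjusted p = 0.0256), Uqcr11 by -0.19 ± 0.04 (adjusted p = 0.013) and Atp5j by -0.22 ± 0.05 (adjusted p = 0.0107). In Cox5b, Cox7a1, Atp5e, Atp5g2 and Atp5j no failing mouse reached the range of the non-failing banded mice; 1.8% of all genes tested showed this. The median change of the members was -0.13, against -0.01 over all genes tested. The count of 11 depended on single mice: it was 6 without failing mouse 1 or non-failing banded mouse 5, and 7 without failing mouse 2 or non-failing banded mouse 6 or 7. Over all 19 fits without 1 mouse, 2.9% to 6.55% of all genes tested were called lower. Of the 11 members, 6 were called in every such fit, whereas Atp5md was called in 5 of the 19, Cox5b in 6 and Sdhc in 10.

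The split by the 18S control ran through these genes within the non-failing banded group. In 22 of the 45 members (48.9%) the 3 non-failing banded mice of the high 18S set lay above all 4 of the low set, against 16.8% of all genes tested; in 7 members (15.6%) they lay below, against 9.76%. Cox7a1, Cox8b, Atp5e, Atp5g2 and Uqcrq were among the 22. In Atp5e the 3 mice of the high set lay at 13.9, 13.84 and 13.87 and the 4 of the low set at 13.67, 13.74, 13.76 and 13.79. In sham mice the 3 arrays of the high set lay above both of the low set in 14 members (31.1%), against 24.6% of all genes tested. They lay below in 9 members (20%), against 21.3%, so the sham shares were nearer to those of all genes.

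Within the 13 arrays of the low 18S set, which hold all 7 failing mice, 18 members were lower in failing than in sham mice (2 sham mice), where 11.3% of all genes tested were called lower. Of these 18, 15 were also among the 32 called on all arrays. Atp5e changed by -0.43 ± 0.07 (adjusted p = 0.000976), Cox7a1 by -0.50 ± 0.08 (adjusted p = 0.0011) and Sdhc by -0.37 ± 0.08 (adjusted p = 0.00574) within that set. Between failing and non-failing banded mice only Atp5e was called in the low set (-0.25 ± 0.05, adjusted p = 0.046). There 0.773% of all genes tested were called lower. With the actin difference as a covariate, 21 members were lower in failing against sham mice, where 10.3% of all genes tested were called lower.

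Fitted changes in failing mice varied with the signal of the probe set. Over the 81 probe sets of these genes that passed the filter, median log2 changes in failing against sham mice were taken by mean signal. They were -0.20 for 10 between 8 and 13, -0.25 for 20 between 13 and 14, -0.24 for 32 between 14 and 15 and -0.16 for 12 over 15. For the 7 under 8 the median was -0.65. Of these 7, Cox7c passed the filter mainly through sham arrays. Cox4i2 and an Sdha probe set (mean 4 in failing and 4.73 in sham mice) also lay near it. Passing through the brighter group favours a fall, so the value for this range is not read as a result. Across the 43 genes measured on all arrays, which share the arrays and their normalisation, Spearman's rho between mean signal and change was 0.37 in failing against sham mice and 0.45 in failing against non-failing banded mice. In non-failing banded against sham mice it was 0.09, and the medians of the 5 signal ranges lay between -0.11 and -0.08. Within Atp5a1 the brightest probe set (mean 15.16) gave -0.09 and the dimmest (mean 7.55) gave -0.88 ± 0.33. The part that signal brightness has in the sizes of these changes was not tested. Of the 25 genes with several probe sets past the filter, none (0) had probe sets with opposite signs at an unadjusted p under 0.05.

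**Figure D5:**
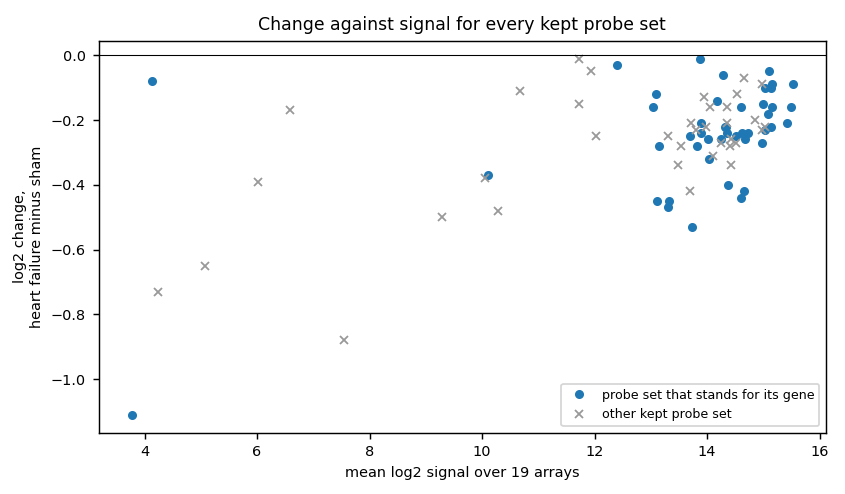
Log2 change in failing against sham mice (y axis) against mean log2 signal over 19 arrays (x axis) for the 81 probe sets of the respiratory genes that passed the filter, with circles for the probe set that stands for its gene and crosses for the others. Most lie at signals over 13 with small declines, and the steepest declines belong to dim probe sets, some of them near the filter.

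The factors that assemble or accompany complexes II to V, 45 tested genes that are not subunits by the rule above, were also lower in failing mice. Of these, 24 were lower and 2 higher than in sham mice, with a median change of -0.21, and 5 were lower and 2 higher in non-failing banded than in sham mice. Between failing and non-failing banded mice 10 were lower and 0 higher. The shares of all genes called lower in these comparisons were 18.9%, 6.53% and 5.65%, and those called higher 20.4%, 10.8% and 3.83%. The 5 of 45 in non-failing banded mice lay near that background. Fmc1, whose yeast counterpart helps to assemble the F1 head, averaged 10.72 ± 0.10 in failing mice (SD, n = 7), 11.20 ± 0.22 in non-failing banded mice (SD, n = 7) and 11.49 ± 0.16 in sham mice (SD, n = 5). Its change was -0.76 ± 0.10 in failing against sham mice (1.7-fold lower, adjusted p = 7.75e-06) and -0.48 ± 0.09 in failing against non-failing banded mice (adjusted p = 0.00446).

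Factors for COX went both ways. Cox19, known from yeast as a copper-binding assembly factor, was higher than in sham mice in failing (0.65 ± 0.08, 1.56-fold, adjusted p = 7.37e-06) and in non-failing banded mice (0.54 ± 0.08, 1.46-fold, adjusted p = 0.00025). Cox16 was lower than in sham mice in failing (-0.53 ± 0.07) and in non-failing banded mice (-0.34 ± 0.07, adjusted p = 0.00216). Cox10, an enzyme of heme A synthesis, was lower in failing than in non-failing banded mice (-0.38 ± 0.08, adjusted p = 0.00718). The other gene called higher in failing mice was Uqcc3 (0.22 ± 0.07, adjusted p = 0.0208), and in non-failing banded mice Sco2 (0.28 ± 0.09, adjusted p = 0.0348); both were singled out after their values were seen. Ndufa4, which is associated with COX, was 1.22-fold lower in failing than in sham mice (adjusted p = 0.00194), and was also chosen after its value was seen.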

How the data were processed

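The authors deposited log2 values for 45101 probe sets on each of 19 arrays. Per the submitters' processing notes the tool was GCRMA, with version and settings not given in the sources used here. It corrects background, normalises across arrays and draws dim probe sets to a common floor. Arrays have no read depth, and their number limits the precision. Of the probe sets, 34958 had 1 gene symbol in GEO's platform annotation, 932 had several and 9211 were not listed. Probe sets above log2 4 on at least 5 arrays were kept, the brightest per gene, which left 10733 genes. They were fitted in limma 3.58.1 (R 4.3.3, lmFit and eBayes) with group as the only term and Benjamini-Hochberg adjustment over all genes, threshold 0.05, after a test on simulated data. Isoform pairs used exact permutation tests (scipy 1.17.1). Promoter sequences are RefSeq's (GRCm38.p6). The members, gene lists, tests and alternatives were chosen with earlier results of these data known. Named with values are complex II, Cyc1, Cycs, the COX isoform pairs, Cox6b1, the c ring genes, the 3 largest called changes per comparison in complexes III, IV and V, and the 2 largest among assembly factors; other genes were chosen after their values were seen.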

Additional observations from a re-analysis of the deposited data

Results flagged for a closer look

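Of 81 group values of the named genes that were tested for a single mouse far from its group, 2 stood out, and chance alone flags about 1 in 20. Cox7a1 in sham mouse 5 was 15.06, above the other sham mice at 14.8 to 14.87. Cycs in non-failing banded mouse 6 was 15, below the other non-failing banded mice at 15.08 to 15.14. That mouse belongs to the high 18S set, as do mice 5 and 7 of its group.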

How the results depend on the processing

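No paired analysis was possible because the labels give no replicate numbers, and the numbers used here only name the mice. Percentages in this paragraph are the shares of all genes called lower in the same fit. In failing against sham mice 32 members were lower in the fit on all arrays (18.9%). Under the other alternatives 29 to 36 were (10.6% to 24.1%), except 18 on the low 18S arrays alone (11.3%) and 21 with the actin covariate (10.3%). Leaving out 1 mouse gave 30 to 33 (16.1% to 20.4%). Of the 32, 14 were called under all 13 alternatives other than leaving out a mouse. The median change was -0.33 in ID series I alone, and -0.25 to -0.22 without 1 mouse. In non-failing banded against sham mice, 5 members were lower (6.53%). The count was 10 without a filter (3.33%), 9 with the mean of the probe sets (6.15%), 13 with equal array medians (9.91%) and 12 with a trended and robust fit (6.97%). With the ID series as a block it was 8 (8.2%), and with the 18S set as a block 8 (8.43%). It was 0 in the low 18S set (1.24%), 1 in series I (7.37%), 1 with the actin covariate (3.31%) and 2 from the 2 groups alone (5.46%). Cox4i2 was the 1 member called higher in both block fits and in series I. Without 1 mouse the count was 1 to 7 (4.23% to 8.52%) and the median -0.11 to -0.09. Between the banded groups, 11 were lower (5.65%), and 19 with the trended fit (6.13%) and 1 in the low 18S set (0.773%). In series I, where all failing arrays have low and all others high 18S, 23 were lower (12.5%, median member change -0.24). Without 1 mouse the count was 6 to 14 (2.9% to 6.55%) and the median -0.15 to -0.12. No member was called higher (0) without 1 mouse. The causes of these shifts were not tested.

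Of 4 isoform pairs, 2 passed in failing against sham mice: 0 with the most variable probe set, with the mean, in the low 18S set and in series I, and 1 with quantile normalisation or the ID block. In non-failing banded against sham mice 1 passed: 0 with the most variable probe set, the mean, quantile normalisation, the low 18S set or series I, and 3 with either block, of which 1 was the pair with Cox4i2, near the filter. Between the banded groups 1 passed: 2 with the 18S block and 0 in series I. Without 1 mouse these counts were 1 to 2, 0 to 1 and 1 to 1. Cox6a2 minus Cox6a1 turned to 0.03 with the most variable probe set.

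Over all genes, failing against sham gave 2027 lower and 2193 higher calls, against 2587 and 1793 after quantile normalisation and 2471 and 1869 with equal medians. Non-failing banded against sham gave 701 and 1164, against 926 and 902 and 1064 and 878. Total calls differed by over 1.5 times in the low 18S set (2670 of 4220, 343 of 1865 and 149 of 1017), with the actin covariate (2705 and 1199 against sham) in series I (2202 between the banded groups), without sham mouse 2 (1185 in non-failing banded against sham mice), and between the banded groups without non-failing banded mouse 5 (508) or 6 (672) or failing mouse 2 (599). Signals over log2 15, dim probe sets and 5 sham arrays limit the precision.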
